A study of Mus musculus with 16 samples.

Results

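The genes described are 30 genes of the oligodendrocyte lineage, chosen from a fixed list of genes that are typical of oligodendrocyte precursors and of myelinating oligodendrocytes. Each of the 30 was found by its symbol among the 48397 symbols in all 16 count tables of mouse hippocampal cultures. They fall into 2 surface genes of oligodendrocyte precursor cells, 8 transcription factors, 4 genes of committed or newly formed cells, 10 genes of myelin proteins, 3 enzymes of myelin lipid and acetate metabolism and 3 other enriched genes. Of the 30, 27 passed the filter on low counts and were tested. *Nkx2-2*, *Zfp488* and *Gpr17* did not.

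The cultures were primary neurons from the hippocampus of wild type CD1 pups aged P0 to P2. All received AraC, which kills dividing cells, at 3 days in vitro (DIV), at 5 mmol/L by the sample labels and in micromoles by the methods of the study. At 10 and again at 13 DIV they received medium that immortalized astrocytes had conditioned and that was then concentrated 10-fold. The astrocytes were homozygous for human apoE2, apoE3 or apoE4, or carried no *Apoe* in the control group, so the control neurons received astrocyte medium without apoE. RNA was taken at 17 DIV from 4 cultures per group, numbered 1 to 4 in the labels, and a number is shared by 1 culture of each group. The labels do not say what the number stands for. Since the RNA came from whole cultures, fewer cells of a type cannot be told apart from less RNA per cell.

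Oligodendrocytes wrap axons of the central nervous system in myelin. They arise from precursor cells that carry the receptor Pdgfra and the proteoglycan Cspg4 (NG2) on their surface. The transcription factors Olig1, Olig2 and Sox10 act throughout the lineage, and Myrf switches on the myelin genes when the cells leave the cycle. Myelin is made of a few abundant proteins, such as Mbp, Cnp, Mag and Mog, and of lipids that enzymes such as Ugt8a and Fa2h build. The hippocampus of a newborn mouse holds precursors and hardly any myelin.

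The promoters of 4 members that the comparisons below turn on are printed here, 1 from the precursor surface genes, 1 from the transcription factors and 2 from the myelin proteins. Each run is the 250 bases before the annotated start of transcription, 5′ to 3′ on the strand of the gene, from RefSeq on GRCm38.p6, whose starts can differ from those of the gene models used for the loci below. Capitals mark a match to the Sox letters (ACAAAG or ACAATG), to the E-box letters of the Olig factors (CAGCTG or CAGATG) or to the Myrf letters (CTGGCAC or CTGGTAC), on either strand. No letters of these 3 searches overlapped in the 4 runs. The windows are chr9:56864854-56865103 (plus strand) for *Cspg4*, chr16:91225300-91225549 (plus) for *Olig2*, chr7:30914864-30915113 (minus) for *Mag* and chr11:100574689-100574938 (plus) for *Cnp*.
Cspg4: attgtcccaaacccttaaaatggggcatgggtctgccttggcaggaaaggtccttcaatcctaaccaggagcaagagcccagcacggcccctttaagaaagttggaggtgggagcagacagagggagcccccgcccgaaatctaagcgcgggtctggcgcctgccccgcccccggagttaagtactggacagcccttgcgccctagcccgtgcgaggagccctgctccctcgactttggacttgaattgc
Olig2: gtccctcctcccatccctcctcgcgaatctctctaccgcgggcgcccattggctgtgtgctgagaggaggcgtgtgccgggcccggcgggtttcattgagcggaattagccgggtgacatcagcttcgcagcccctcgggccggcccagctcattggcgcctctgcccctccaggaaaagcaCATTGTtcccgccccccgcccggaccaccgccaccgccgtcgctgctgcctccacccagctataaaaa
Mag: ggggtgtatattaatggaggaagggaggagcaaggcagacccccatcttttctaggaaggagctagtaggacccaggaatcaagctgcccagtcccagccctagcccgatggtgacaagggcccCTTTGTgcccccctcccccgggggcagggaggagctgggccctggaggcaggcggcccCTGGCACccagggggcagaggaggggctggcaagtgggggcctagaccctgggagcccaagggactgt
Cnp: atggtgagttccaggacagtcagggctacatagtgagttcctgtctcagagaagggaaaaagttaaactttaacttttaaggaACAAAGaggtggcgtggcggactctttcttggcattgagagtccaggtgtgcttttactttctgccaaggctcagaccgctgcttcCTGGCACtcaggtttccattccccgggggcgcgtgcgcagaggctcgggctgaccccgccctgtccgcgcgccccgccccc

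The *Mag* and *Cnp* windows each held 1 match to the Sox letters and 1 to the Myrf letters. The *Olig2* window held 1 match to the Sox letters, and the *Cspg4* window held none of the 3. Among the 22 members with a promoter entry, 9 held the Sox letters, 6 the E-box letters and 3 (*Cnp*, *Mag* and *Mog*) the Myrf letters. Of all 27025 promoters of the same length, 25.5% held the Sox, 25.3% the E-box and 5.86% the Myrf letters. The GC box letters (GGGCGG) were in 10 of the 22 and in 32.9% of all. A match is a run of letters and not a measured binding site. *Olig1*, *Sox10*, *Gpr17*, *Bcas1*, *Myrf*, *Mbp*, *Fa2h* and *Trf* had no entry.

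RNA of the lineage was present in every library, although the cultures are labelled as neurons. Levels of different genes were compared as CPM (counts scaled to 1000000 per library) per kilobase (kb) of exon, as mean ± SD over the 16 libraries. *Olig1* had the highest level per length at 47.3 ± 34.1 CPM per kb, followed by *Mbp* (myelin basic protein) at 18.4 ± 11.8, *Cnp* (a phosphodiesterase of the myelin sheath) at 12.7 ± 8.31, *Sirt2* (a deacetylase enriched in myelin) at 10.9 ± 3.31 and *Olig2* at 9.62 ± 7.12. The SDs were so wide that each of the 29 neighbouring pairs in this order differed by less than the larger of its SDs. Among the remaining transcription factors the levels were low, at 0.246 ± 0.169 CPM per kb for *Sox10* and 0.166 ± 0.113 for *Myrf*. *Pdgfra* had 0.122 ± 0.0973 and *Cspg4* 0.335 ± 0.219 CPM per kb. *Mbp* took a mean of 29.6% of the counts of the 30 genes and *Olig1* 18.8%. Of the 30, 19 had a mean of at least 1 CPM. *Opalin* was at 0 counts in 1 library, *Gpr17* in 2, *Zfp488* in 4 and *Nkx2-2* in 5, and a count of 0 allows up to 3 counts.

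Some of the counts are less certain than others. The files do not say whether counting used the strand, and on GENCODE M21 the exons of *Trf* shared 63.5% of their length with *Gm20425* on the same strand, the largest overlap among the members. For *Nkx6-2* 12.9%, for *Bcas1* 12.6% and for *Olig1* 7.26% of the exon length lay opposite exons of another gene. Depth ran from 14087723 to 34248172 counts on genes per library. Reads assigned to no single gene made up 38.4 to 73.7% of a library, and the single gene *Lars2*, where reads of ribosomal RNA can map, took 0.359 to 15% of the gene counts. The libraries apoE2 number 4 and apoE4 number 2 had the lowest shares of both, so results are also given without these 2 libraries where they change. Neuron markers (6 genes) summed to 2849 to 6375 CPM, against 196 to 990.2 CPM for the 30 lineage genes.

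**Figure D1:**
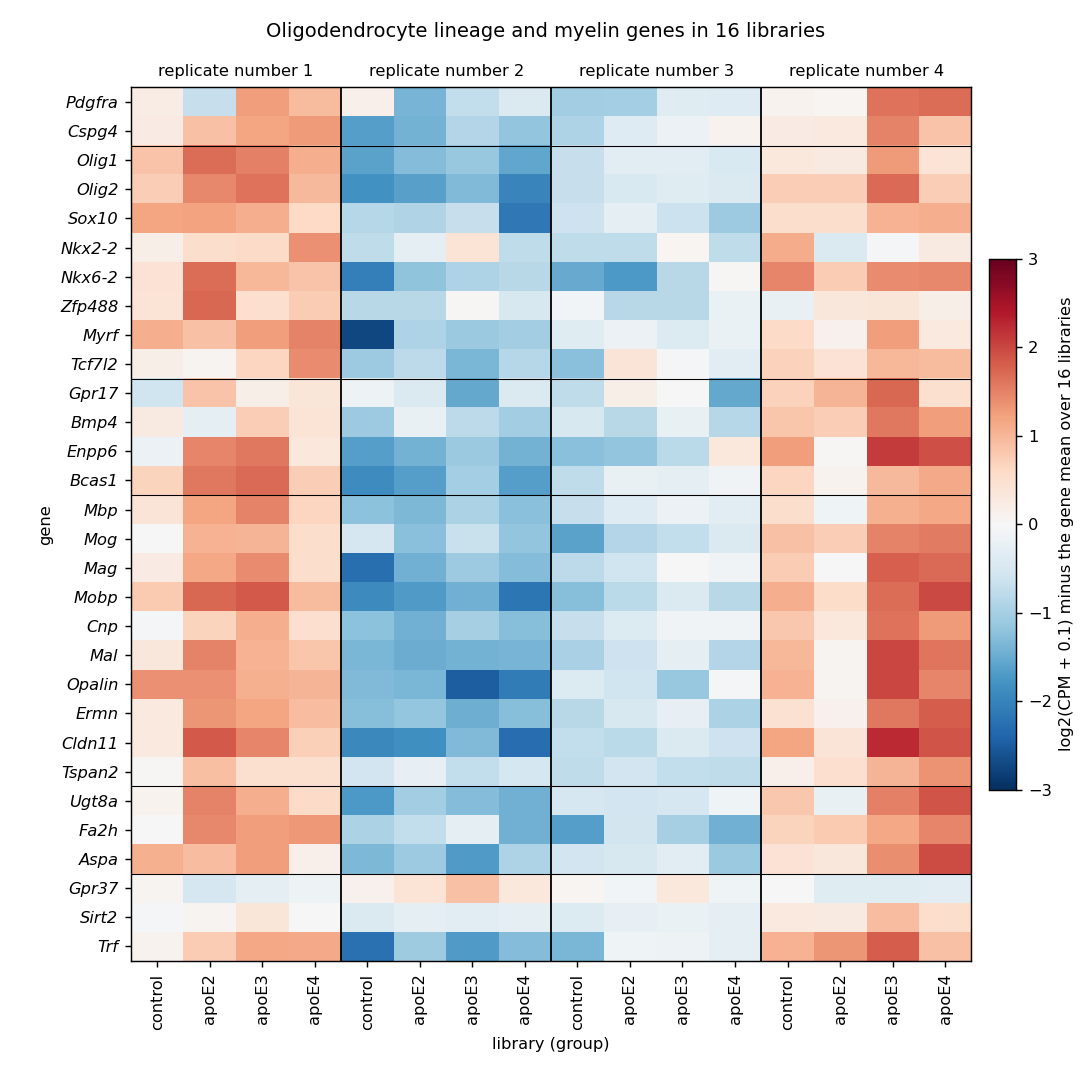
Level of each of the 30 genes (rows, grouped by role) in each of the 16 libraries (columns, ordered by replicate number and then by group), as log2(CPM + 0.1) minus the gene's mean over the libraries. The columns of numbers 1 and 4 are red and those of numbers 2 and 3 blue for nearly all rows in each of the 4 groups, and *Gpr37* is the row that goes the other way.

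The largest differences among the libraries lay between replicate numbers and not between groups. All 4 groups had high lineage RNA in the cultures numbered 1 and 4 and low lineage RNA in those numbered 2 and 3. The summed level of the 30 genes was 551 to 990.2 CPM over the 4 libraries of number 1, 196 to 253 in number 2, 267 to 358 in number 3 and 467 to 982 in number 4. With group in the model, 27 of the 27 tested members differed between the 4 numbers at an adjusted p under 0.05 (edgeR quasi-likelihood F test, Benjamini-Hochberg over 17038 genes), where 63.8% of all tested genes did. The 19 members with a mean of at least 1 CPM were all among them. The share of a gene's variance in log2 CPM that lay between numbers had a median of 83.6% over the 27 members and 56.1% over all tested genes. The share between groups was 5.47% and 14.4%.

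Transcription factors and precursor genes followed this order. *Olig1* (chromosome 16, 91269772 to 91271933, plus strand of GRCm38), a bHLH factor of the whole lineage, stood in numbers 1 to 4 at 143, 25.8, 49 and 99 CPM in the control, 255, 32, 63.6 and 95.3 in the apoE2, 226, 36, 62.8 and 191 in the apoE3 and 167, 26.8, 57.8 and 105 in the apoE4 libraries. Number 2 was the lowest and number 1 the highest in each group. By number, *Olig1* was at 198 ± 51.7 CPM in number 1, 30.2 ± 4.75 in number 2, 58.3 ± 6.72 in number 3 and 123 ± 45.9 in number 4 (SD, n = 4), with an adjusted p of 1.04e-08 by edgeR. *Olig2* (chromosome 16, 91225457 to 91228677, plus strand), which specifies the lineage, had 29.9, 5.03, 11 and 29.6 CPM in the control, 48.5, 5.69, 13 and 29.9 in the apoE2, 55, 7.09, 13.8 and 58.3 in the apoE3 and 35, 4.47, 13.2 and 29.8 in the apoE4 libraries. None of its values in numbers 2 and 3 reached the lowest value in numbers 1 and 4, and its adjusted p of 4.25e-09 was the smallest of the members.

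*Cspg4* (chromosome 9, 56865033 to 56899870, plus strand), the NG2 proteoglycan of precursor cells, had 3.82, 0.966, 1.64 and 3.82 CPM in the control, 6.06, 1.15, 2.45 and 3.99 in the apoE2, 7.46, 1.72, 2.82 and 9.25 in the apoE3 and 8.0, 1.37, 3.49 and 5.95 in the apoE4 libraries. Number 2 was again the lowest in each group, and the adjusted p between numbers was 3.25e-07 by edgeR. *Pdgfra* (chromosome 5, 75152292 to 75198215, plus strand), the receptor through which PDGF keeps precursors dividing, had 1.14, 1.09, 0.419 and 1.05 CPM in the control, 0.564, 0.306, 0.421 and 1.02 in the apoE2, 2.44, 0.533, 0.724 and 3.22 in the apoE3 and 1.97, 0.684, 0.72 and 3.31 in the apoE4 libraries. In the control the library of number 2 lay between those of numbers 1 and 4, whereas with each isoform numbers 1 and 4 were above numbers 2 and 3. Of its variance 53.3% lay between numbers and 29.3% between groups. *Sox10* (chromosome 15, 79154908 to 79165240, minus strand), a factor needed for myelin gene expression, had 1.45, 0.282, 0.349 and 0.89 CPM in the control, 1.48, 0.267, 0.46 and 0.89 in the apoE2, 1.37, 0.328, 0.343 and 1.31 in the apoE3 and 0.949, 0.057, 0.221 and 1.37 in the apoE4 libraries. At these low levels the libraries of number 1 and number 4 still lay above those of numbers 2 and 3 (adjusted p = 5.89e-05, edgeR).

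The myelin protein genes showed the same order of numbers. *Mbp*, whose product compacts the myelin membrane, had 169, 54.2, 78.9 and 185 CPM in the control, 290.4, 50, 97.7 and 118 in the apoE2, 361, 66, 114 and 268 in the apoE3 and 202, 53.4, 103 and 288 in the apoE4 libraries. Within each group the libraries of number 2 were the lowest. By number *Mbp* was at 255 ± 87.2, 55.9 ± 6.98, 98.5 ± 14.6 and 215 ± 78.4 CPM (SD, n = 4), a difference between numbers 1 and 2 of 2.16 ± 0.21 (SE) on the log2 scale. *Cnp* (chromosome 11, 100574904 to 100591729, plus strand) had 36.1, 16.1, 23.4 and 66.7 CPM in the control, 59.8, 13.9, 28.5 and 47.2 in the apoE2, 79.9, 18.9, 34.8 and 117 in the apoE3 and 53.7, 15.5, 35.2 and 91.5 in the apoE4 libraries. Here number 4 was the highest in the control, apoE3 and apoE4 groups and number 1 in the apoE2 group.

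*Mag* (chromosome 7, 30899176 to 30914873, minus strand), a sialic acid-binding glycoprotein that faces the axon, had 8.64, 1.45, 4.19 and 12.5 CPM in the control, 16.3, 2.64, 4.75 and 7.27 in the apoE2, 19.8, 3.36, 7.2 and 25.5 in the apoE3 and 10.6, 2.88, 6.75 and 24 in the apoE4 libraries. *Mog* (chromosome 17, 37010743 to 37023398, minus strand), a protein of the outermost myelin layer, had 3.05, 2.13, 0.942 and 5.71 CPM in the control, 6.41, 1.22, 1.61 and 5.19 in the apoE2, 6.25, 1.89, 1.79 and 8.73 in the apoE3 and 4.41, 1.28, 2.21 and 9.11 in the apoE4 libraries. *Mal* (chromosome 2, 127633226 to 127656695, minus strand), a raft proteolipid of compact myelin, had 8.09, 2.41, 3.21 and 12.9 CPM in the control, 18.2, 2.22, 4.14 and 6.77 in the apoE2, 13.2, 2.34, 5.22 and 26.1 in the apoE3 and 11.5, 2.37, 3.43 and 19.5 in the apoE4 libraries. For each of these 3 genes the libraries of numbers 1 and 4 lay above those of numbers 2 and 3 in every group. Number 2 fell below number 4: its log2 level decreased by 2.69 ± 0.28 for *Mag*, 2.1 ± 0.27 for *Mog* and 2.73 ± 0.32 for *Mal* (SE).

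The means of the other tested genes, apart from *Gpr37*, were also higher in numbers 1 and 4 than in numbers 2 and 3, with different amplitudes. *Tspan2* and *Fa2h* had their lowest mean in number 3 and not in number 2. The fitted difference between numbers 1 and 2 was 4.12 ± 0.62 (log2, SE) for *Opalin*, a late marker of myelinating cells, 3.19 ± 0.27 for *Mobp*, 3.06 ± 0.35 for *Cldn11*, a claudin of myelin tight junctions, 2.37 ± 0.34 for *Ermn*, and 1.01 ± 0.20 for *Tspan2*, a tetraspanin. The enzymes *Ugt8a*, *Fa2h* and *Aspa*, which make galactolipids, hydroxylate fatty acids and free acetate from N-acetylaspartate, differed by 2.31 ± 0.38, 2.47 ± 0.46 and 2.93 ± 0.55. *Enpp6* and *Bcas1*, which mark newly formed oligodendrocytes, differed by 3.07 ± 0.60 and 2.87 ± 0.27, and *Bmp4* by 1.51 ± 0.46. *Nkx6-2*, *Myrf* and *Tcf7l2*, factors of differentiation, differed by 2.80 ± 0.50, 2.75 ± 0.36 and 1.90 ± 0.39, and the iron carrier *Trf* by 2.53 ± 0.28. *Sirt2* had a small difference of 0.42 ± 0.10. *Gpr37*, a receptor also present in neurons and astrocytes, went the other way: it was at 24.3 ± 4.14, 38.6 ± 9.32, 29 ± 4.14 and 23.5 ± 3.19 CPM in numbers 1 to 4 and its log2 level in number 1 fell by 0.66 ± 0.15 (SE) below number 2.

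In pairwise contrasts of the numbers, added after the data had been seen, 26 of the 27 tested members were higher in number 1 than in number 2 (21.9% of all genes), and 25 were higher in number 1 than in number 3 (19.5%). Against number 4, 26 were lower in number 2 (29.7% of all genes) and 26 in number 3 (31.7%). Between numbers 2 and 3, 11 members were lower in number 2 (13.0%): *Bcas1*, *Cldn11*, *Cnp*, *Cspg4*, *Mag*, *Mbp*, *Mobp*, *Myrf*, *Olig1*, *Olig2* and *Trf*. Numbers 1 and 4 differed for 2 members (15.8% of all genes). *Olig1* was higher in number 1, by 0.70 ± 0.14 (adjusted p = 0.00427, edgeR), and *Sirt2* fell by 0.41 ± 0.10 below number 4 (adjusted p = 0.0107). The adjusted p of the other tested members was above 0.05.

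**Figure D2:**
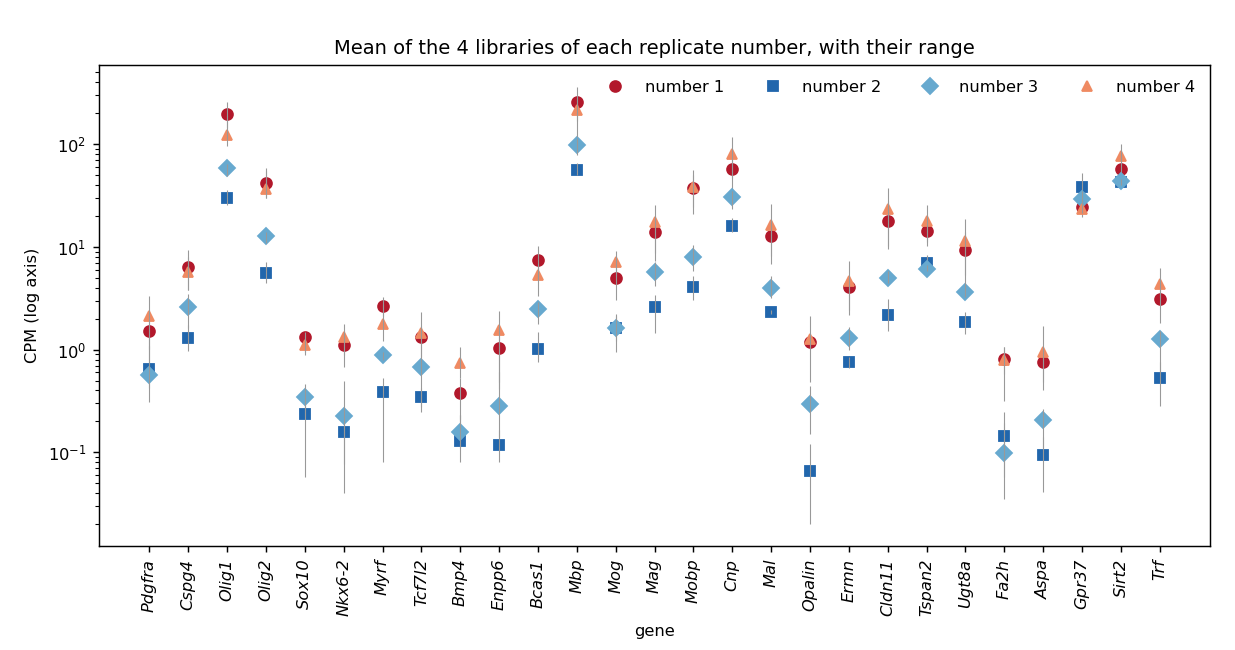
Mean level of each of the 27 tested genes in the 4 libraries of each replicate number, in CPM on a log axis, with lines for the range of the 4 libraries. Numbers 1 and 4 lie above numbers 2 and 3 for 26 genes, and *Gpr37* is highest in number 2.

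Marker lists of other cell types differed in how their summed levels ran over the replicate numbers. Astrocyte markers (6 genes, among them *Gfap* and *Aqp4*) summed to 1299 to 3808 CPM in number 1, 518 to 802 in number 2, 1375 to 2374 in number 3 and 2438 to 5979 in number 4, with the ranges of numbers 1 and 3 overlapping. Markers of fibroblasts and leptomeningeal cells (5 genes) summed to 104 to 189, 14.6 to 19.8, 16.5 to 29.7 and 76.3 to 226 CPM. The sum of the neuron markers went the opposite way, at 3759 to 4107, 5477 to 5869, 5461 to 6375 and 2849 to 4246 CPM. *Map2*, *Snap25*, *Syt1* and *Rbfox3* were lower in numbers 1 and 4, but *Stmn2* and *Tubb3* did not keep to this. In number 4 *Stmn2* lay at 442 to 660 and *Tubb3* at 338 to 432 CPM, against 405 to 571 and 318 to 521 in number 3. Choroid plexus markers (4 genes) summed to 47.7 to 57.6, 14.1 to 17.2, 42.9 to 58.5 and 46.3 to 122 CPM, lowest in number 2, and endothelial markers (5 genes) to 1.27 to 3.12, 0.966 to 1.95, 1.6 to 2.41 and 2.14 to 4.43 CPM. The summed ranges of pericyte markers (5 genes) overlapped between the 4 numbers, at 8.09 to 14.6, 9.42 to 13.9, 7.78 to 16.8 and 7.07 to 18.6 CPM, and so did those of dividing cell markers (5 genes), at 10.1 to 35.3, 7.2 to 40.6, 10.7 to 26.2 and 17.9 to 36.8. Gene by gene, 3 of 3 tested pericyte and 4 of 5 dividing cell markers differed between numbers (63.8% of all genes). *Pdgfrb* lay at 2.55 to 5.33, 0.615 to 0.884, 0.558 to 1.33 and 3.03 to 10.2 CPM. *Rgs5*, the largest part of the pericyte sum, lay at 5.18 to 7.92, 8.65 to 13.1, 6.28 to 15 and 2.54 to 4.92 CPM. Microglia markers (6 genes) had another order, lowest in number 3 and highest in number 4, at 9.83 to 13.7, 11.4 to 15.7, 5.83 to 8.12 and 16.2 to 29.1 CPM. Markers of Schwann cells, which share *Mbp*, *Mag*, *Mal* and *Sox10* with oligodendrocytes, were detected as well. *Pmp22* lay at 1.87 to 27.8 CPM over the 16 libraries, *Cdh19* at 0.483 to 11.6 and *Prx* at 0.873 to 5.49, while *Foxd3* was at 0 in 16 of 16. The 3 tested Schwann cell markers differed between numbers, and *Pmp22* and *Cdh19* had the order of the lineage genes in each group, with numbers 1 and 4 above number 3 and number 2 the lowest. Depth and *Lars2* also moved with the number: *Lars2* took 5.95 to 15% of the gene counts in number 1, 0.359 to 4.85% in number 2, 3.89 to 8.13% in number 3 and 0.690 to 9.82% in number 4. The part of these in the differences between numbers was not tested.

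**Figure D3:**
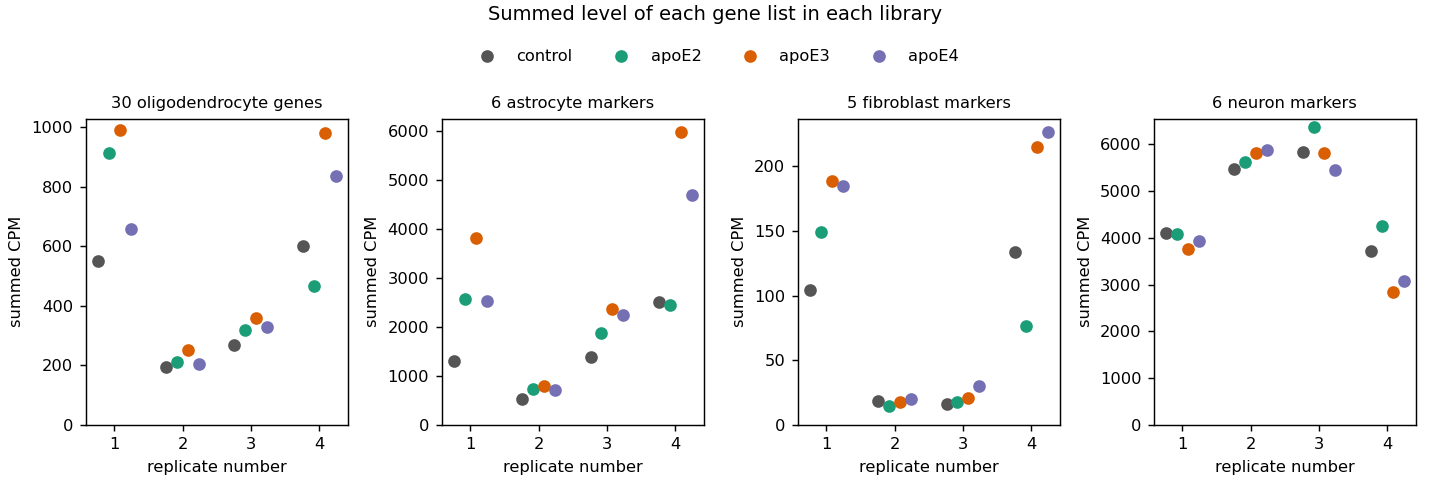
Summed CPM in each library for the 30 lineage genes, 6 astrocyte, 5 fibroblast and 6 neuron markers, against replicate number, colored by group. The lineage genes and the fibroblast markers are high in numbers 1 and 4, the astrocyte markers are lowest in number 2, and the neuron markers are lower in numbers 1 and 4.

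Beside this spread, the differences between treatments were small. In the edgeR fit without the replicate number 0 of the 27 tested members passed an adjusted p under 0.05 (edgeR) in each of the 6 comparisons. DESeq2 also called 0 in each, where it called 0.17%, 0.352% and 0.534% of all genes for apoE2, apoE3 and apoE4 against control, 0.405% for apoE4 against apoE3, 0.957% for apoE4 against apoE2 and 0.0529% for apoE3 against apoE2. The share of all tested genes called by edgeR was 0.0% for apoE2, 0.00587% for apoE3 and 0.194% for apoE4 against control, 0.147% for apoE4 against apoE3, 0.252% for apoE4 against apoE2 and 0.0% for apoE3 against apoE2. At an unadjusted p under 0.05 there were 0 members in the 3 comparisons with control (2.79%, 6.43% and 3.3% of all genes with apoE2, apoE3 and apoE4) and 0 for apoE4 against apoE3 (4.7%). There was 1, *Pdgfra*, for apoE4 against apoE2 (5.34%) and for apoE3 against apoE2 (2.28%). A second criterion took the thresholds of the study, a change of 2-fold or more at a p below 0.05 before adjustment. The study took its p from another test, on counts normalised by size factors, whereas fold and p here are those of edgeR, so these counts do not follow its procedure. The criterion held for 0 members against control, where 0.722%, 1.96% and 1.15% of all genes met it with apoE2, apoE3 and apoE4, and for 0 between apoE4 and apoE3 (1.25%). *Pdgfra* alone met it for apoE4 against apoE2 (1.3% of all genes) and for apoE3 against apoE2 (0.687%).

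The fold changes of the members were nonetheless mostly positive against control. With apoE3 27 of 27 tested members had a positive log2 fold change with a median of 0.71, with apoE4 25 with a median of 0.48 and with apoE2 21 with a median of 0.28, while the median over all tested genes was 0.015 with apoE3, 0.0020 with apoE4 and 0.011 with apoE2. The 3 comparisons share the control libraries, and members share the numbers in which they are high, so these counts are not independent. In pairs of cultures with the same number, 14 of the 27 were higher with apoE3 than in control in 4 of 4 pairs (18.6% of all genes), 8 with apoE4 (14.9%) and 5 with apoE2 (11.6%). The summed level of the 30 genes in numbers 1 to 4 was 1.8, 1.29, 1.34 and 1.64 times that of the control with apoE3, 1.2, 1.05, 1.23 and 1.39 times with apoE4 and 1.66, 1.08, 1.2 and 0.779 times with apoE2. Number 4 with apoE2, the library with few *Lars2* counts, was the lowest of these.

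**Figure D4:**
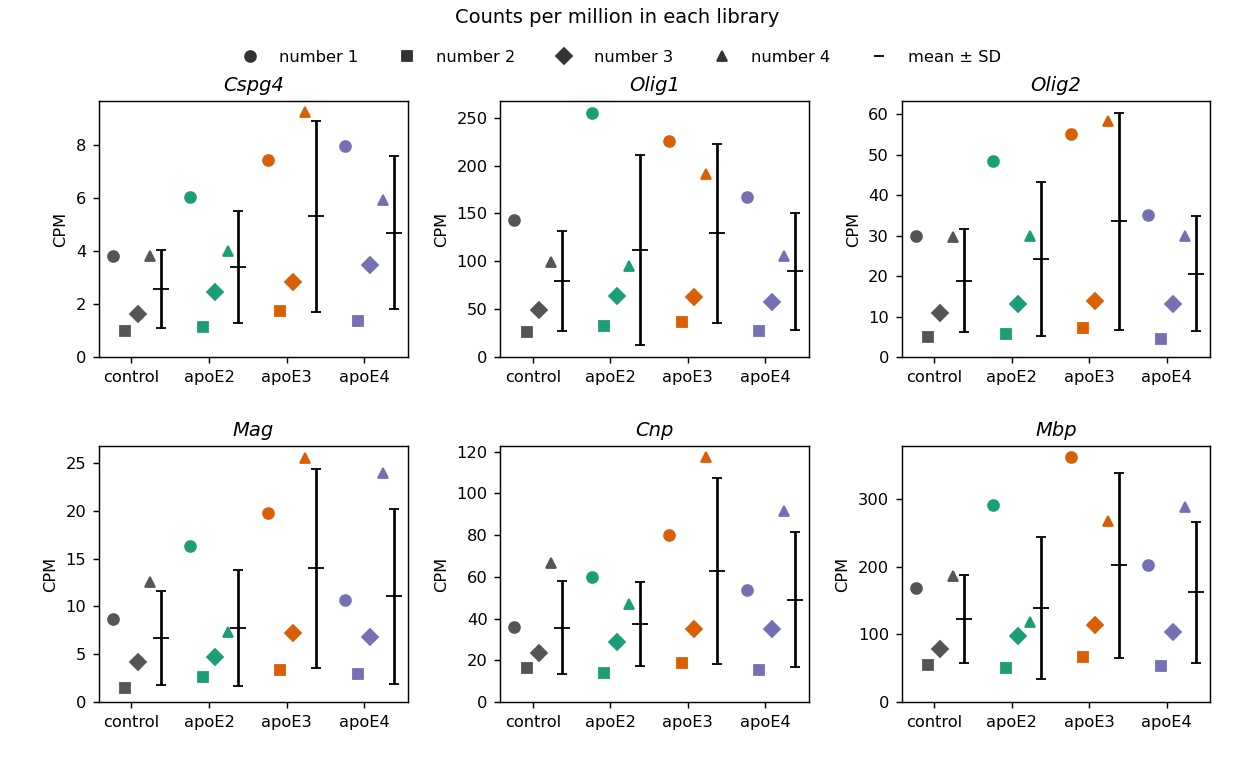
Level of 6 members in CPM in each library by group (color) and replicate number (symbol), with the mean and SD of the 4 libraries of a group in black. The ranges of the 4 groups overlap for each gene, and within a group the symbols of numbers 1 and 4 lie above those of numbers 2 and 3.

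Once the replicate number entered the model as a block, members passed the test chiefly with apoE3. The libraries of a number deviated together, so the block was fitted beside the main model. With apoE3, 7 of 27 tested members were higher than in control at an adjusted p under 0.05 (edgeR with the replicate block) and 0 were lower, where 11.7% of all genes were called and 7.95% were called higher. The 7 were *Cspg4* by 1.00 ± 0.19 (log2, SE; adjusted p = 0.0038), *Olig2* by 0.70 ± 0.14 (adjusted p = 0.00575), *Olig1* by 0.63 ± 0.14 (adjusted p = 0.0111), *Cnp* by 0.70 ± 0.17 (adjusted p = 0.0172), *Mag* by 1.04 ± 0.26 (adjusted p = 0.0205), *Trf* by 0.96 ± 0.26 (adjusted p = 0.0275) and *Sirt2* by 0.35 ± 0.10 (adjusted p = 0.0308), each higher in 4 of 4 pairs. All 7 had a mean above 1 CPM. The median over the 27 tested members was 0.63 against 0.015 over all genes. Without apoE2 number 4 and apoE4 number 2 there were 12, with *Bcas1*, *Cldn11*, *Mal*, *Mbp* and *Mobp* beside the 7, while 10.2% of all genes were called higher in that fit. Leaving out single libraries gave 2 (without control number 1, where 3.14% of all genes were called higher) to 12 (without apoE2 number 4, where 10.2% were), and *Cspg4* and *Olig2* held in 16 of 16 such fits.

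By role, 1 of 2 precursor surface genes, 2 of 6 tested transcription factors, 2 of 10 myelin protein genes and 2 of 3 other enriched genes were called with apoE3, and none of the 3 tested genes of committed cells and none of the 3 enzymes. *Mbp* was at 0.61 ± 0.20 (adjusted p = 0.0628), *Mobp* at 0.77 ± 0.25 (adjusted p = 0.0598), *Mog* at 0.57 ± 0.28 (adjusted p = 0.196), *Mal* at 0.67 ± 0.30 (adjusted p = 0.169) and *Sox10* at 0.17 ± 0.37 (adjusted p = 0.806). *Sirt2* (chromosome 7, 28766735 to 28788661, plus strand) had 51.1, 39.4, 39.9 and 65.6 CPM in the control, 56.7, 43.9, 45 and 64 in the apoE2, 68.5, 42.2, 46 and 101 in the apoE3 and 53.6, 44.4, 44 and 76.9 in the apoE4 libraries. The groups overlapped, and the libraries of number 4 were the highest in each. *Trf* (chromosome 9, 103204001 to 103230444, minus strand) had 1.82, 0.282, 0.593 and 3.61 CPM in the control, 2.96, 0.764, 1.53 and 4.4 in the apoE2, 3.88, 0.451, 1.52 and 6.23 in the apoE3 and 3.86, 0.627, 1.38 and 3.21 in the apoE4 libraries. The control library of number 2 was its lowest value and the apoE3 library of number 4 its highest. The 2-fold criterion was met with the block by *Mag*, *Enpp6* and *Fa2h* with apoE3 (4.77% of all genes). *Enpp6*, a choline-specific phosphodiesterase, had 0.409, 0.0805, 0.14 and 1.26 CPM in the control, 1.48, 0.115, 0.153 and 0.483 in the apoE2, 1.6, 0.164, 0.229 and 2.36 in the apoE3 and 0.61, 0.114, 0.609 and 2.09 in the apoE4 libraries. *Fa2h*, fatty acid 2-hydroxylase, had 0.318, 0.121, 0.0349 and 0.576 CPM in the control, 1.06, 0.153, 0.192 and 0.636 in the apoE2, 0.914, 0.246, 0.114 and 0.853 in the apoE3 and 0.949, 0.057, 0.0554 and 1.07 in the apoE4 libraries. Both genes had at most 41 and 25 counts in a library and adjusted p-values of 0.172 and 0.156.

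With apoE4, 1 of 27 was higher than in control with the block (3.3% of all genes called). This was *Cspg4*, by 0.84 ± 0.19 (adjusted p = 0.0204, edgeR), higher in 4 of 4 pairs, and the call was lost in 5 of 16 fits without 1 library. *Cspg4* and *Pdgfra* summed to 2.01, 1.0, 2.04 and 1.9 times the control in numbers 1 to 4 with apoE4. The ratios were 1.18, 1.03, 1.19 and 1.05 for the transcription factors and 1.25, 0.98, 1.33 and 1.59 for the myelin proteins. For the fibroblast markers they were 1.77, 1.09, 1.8 and 1.69. The part of other cell types in the *Cspg4* call was not tested. *Mag* was at 0.74 ± 0.27 (adjusted p = 0.171), *Cnp* at 0.39 ± 0.17 (adjusted p = 0.264), *Olig1* at 0.15 ± 0.14 (adjusted p = 0.631) and *Olig2* at 0.10 ± 0.14 (adjusted p = 0.787). With apoE2, 0 of 27 passed with the block (1.73% of all genes), by edgeR and by DESeq2 (4.16%), and 3 had an unadjusted p under 0.05 (13.3% of all genes). *Trf* was at 0.81 ± 0.26 (adjusted p = 0.14), *Olig1* at 0.39 ± 0.14 (adjusted p = 0.22) and *Tspan2* at 0.44 ± 0.19 (adjusted p = 0.334). *Pdgfra* had a value of -0.76 ± 0.39 (adjusted p = 0.436) and was lower in 3 of 4 pairs.

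**Figure D5:**
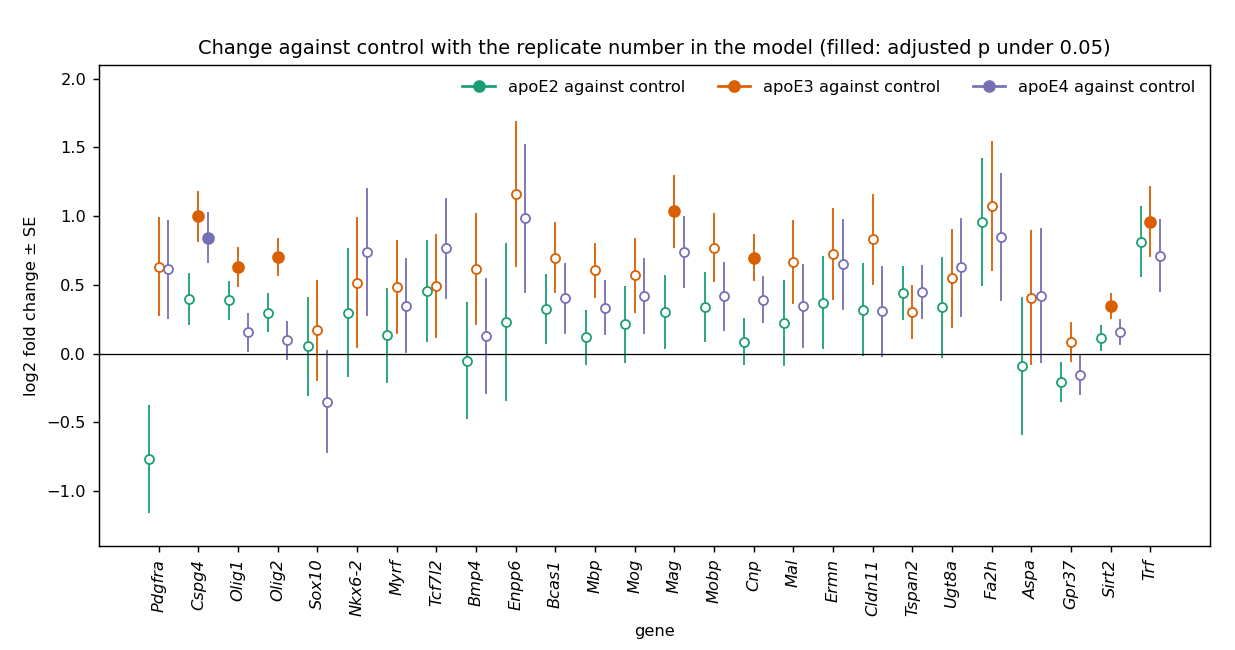
Log2 fold change against control with SE for 26 tested genes, by isoform, from the fit with the replicate number; filled points have an adjusted p under 0.05. *Opalin* is left out: its log2 values were -0.41, -0.0041 and -0.0004 with apoE2, apoE3 and apoE4, and an SE computed from the change and its F, as here, is unreliable for the last 2, which are so near 0. The filled points are 7 for apoE3 and *Cspg4* for apoE4, and *Pdgfra* with apoE2 is the lowest point.

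Between isoforms, 1 member passed the test with the block. *Olig2* was lower with apoE4 than with apoE3, at -0.61 ± 0.14 (log2, SE; adjusted p = 0.0397, edgeR with the replicate block; 1.76% of all genes called), and lower in 4 of 4 pairs. The call was lost in 9 of 16 fits that left out 1 library, and DESeq2 with the block gave 2 members (4.13% of all genes). *Olig1* was lower in 4 of 4 pairs as well, at -0.48 ± 0.14 (adjusted p = 0.114). *Cspg4* was at -0.16 ± 0.18 (adjusted p = 0.71) and *Mbp* at -0.27 ± 0.20 (adjusted p = 0.533). Against apoE2, 0 of 27 passed with apoE4 (4.44% of all genes) and 0 with apoE3 (1.31%), with 2 and 7 at an unadjusted p under 0.05 (18.0% and 15.9% of all genes) and 1 and 3 by DESeq2 with the block (7.29% and 4.26%). *Pdgfra* met the 2-fold criterion in both, at 1.38 ± 0.38 (adjusted p = 0.053; 2.1% of all genes) with apoE4 and 1.40 ± 0.38 (adjusted p = 0.086; 1.68%) with apoE3. These 2 contrasts share the apoE2 libraries, in which *Pdgfra* lay at 0.564, 0.306, 0.421 and 1.02 CPM, the lowest mean of the 4 groups. Without the block its values were 1.49 ± 0.66 and 1.53 ± 0.66, and the criterion was lost in 5 of 16 fits without 1 library in each.

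Lists of related precursor and myelin genes that are not among the 30 gave a wider view. Of 20 related precursor genes 19 were tested, and with apoE3 and the block 10 were higher than in control and 0 lower, with a median of 0.60 (log2), where 7.95% of all genes were called higher and 11.7% in either direction. They were *C1ql1* at 1.5 ± 0.40, *Matn4* at 1.36 ± 0.33, *Rlbp1* at 1.07 ± 0.22, *Tns3* at 0.95 ± 0.14, *Itpr2* at 0.78 ± 0.15, *Gpr37l1* at 0.75 ± 0.19, *Vcan* at 0.71 ± 0.17, *Sox6* at 0.63 ± 0.16, *Lhfpl3* at 0.60 ± 0.11 and *Megf11* at 0.44 ± 0.09 (SE). *Gpr37l1*, *Rlbp1* and *Itpr2* are also expressed by astrocytes. Of 28 related myelin genes 26 were tested, and 5 were higher (*Tmem63a*, *Lpar1*, *Car2*, *Plekhb1* and *Nfasc*, at 1.02 to 0.48) and *Hhip* lower at -1.02 ± 0.28. Not all of the called genes varied over the numbers as the 30 did. *Lhfpl3* was highest in number 3 in each group, at 22.5 CPM in the control against 10.8 to 12.5 in the other numbers. In the control *Megf11* lay at 47.8 to 55.3 and *Nfasc* at 135 to 157 CPM over the numbers. With apoE4, *Tns3* (0.75 ± 0.13) and *Nfasc* (0.45 ± 0.11) were higher (3.3% of all genes called), and with apoE2 *Vcan* (0.77 ± 0.17; 1.73%). Without the block 0 of either list passed in the 3 comparisons with control.

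Without the block 0 markers of the other cell types passed in the comparisons with control. With it, where 11.7%, 3.3% and 1.73% of all genes were called with apoE3, apoE4 and apoE2, 6 of 6 astrocyte markers were higher with apoE3 and 3 of 6 with apoE4, against 0 with apoE2, and their summed level in numbers 1 to 4 was 2.93, 1.55, 1.73 and 2.38 times that of the control with apoE3. Fibroblast markers were called for 2 of 5 with apoE3 and 1 of 5 with apoE4. Of 3 tested Schwann cell markers 2 (*Pmp22* and *Cdh19*) were higher with apoE3 and 3 with apoE4 (*Prx* as well). *Pmp22* is also expressed by fibroblasts. Neuron markers had 1 higher (*Tubb3*) and 1 lower (*Snap25*) of 6 with apoE3. With apoE3, 1 of 4 choroid plexus, 1 of 2 tested endothelial and 1 of 5 dividing cell markers (*Top2a*, also higher with apoE2) were higher, and 0 of 6 microglia and 0 of 3 tested pericyte markers. With apoE4, 1 of 2 tested endothelial markers was higher too. The sum of the dividing cell markers was 26.2 to 40.6 CPM with apoE3, 19.1 to 28.3 with apoE2 and 7.2 to 17.9 in the control. Neither isoform overlapped the control. With apoE3 *Top2a* carried this gap, at 15.9 to 35 CPM against 2.18 to 7.44 in the control. Each of the other dividing cell markers overlapped, such as *Mki67* at 4.02 to 13.3 against 2.94 to 7.28 CPM. The sum of the pericyte markers was 11 to 18.6 CPM with apoE3 and 8.09 to 11.8 in the control. The part of these cell types in the differences of the lineage genes was not tested.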

How the data were processed

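RNA from 16 hippocampal cultures (4 each for control, apoE2, apoE3 and apoE4) was sequenced after ribosomal RNA depletion. The authors mapped reads on mm10 (STAR) and deposited raw counts per gene symbol and library. The annotation and the strand setting of the counting are not given in the sources used here. Summary rows entered neither library sizes nor tests. The main model had group alone and was fitted to the deposited counts with edgeR 4.0.16 (R 4.3.3) and its quasi-likelihood test over 17038 genes that passed filterByExpr (minimum count 10, minimum total 15, proportion 0.7), with TMM scaling and Benjamini-Hochberg adjustment in each comparison. CPM are counts scaled to a TMM-adjusted depth of 1000000. A 2-fold criterion took the study's thresholds (a change of 2-fold or more at a p below 0.05 before adjustment) but edgeR's p, where the study used Student's test on size-factor normalised counts.

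The replicate numbers come from the labels. Deviations from the group means correlated at 0.362 to 0.831 between libraries of the same number and at -0.736 to 0.569 between different numbers, and the common dispersion fell from 0.1318 to 0.0178 with the number as a block, so blocked values are given beside the results. P-values measure the spread between these libraries. No 2 libraries had the same counts (at least 24322 genes differed in each pair).

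Members and gene lists were chosen with earlier results of these data known. Values per library were given for 10 defining members, for members that passed a criterion and for the gene with the highest level per length. Loci and exon lengths come from GENCODE M21 (GRCm38). Alternatives were DESeq2 1.42.0, other scaling and filters, only the groups compared, and each library left out. Refits with the block, the fit without 2 libraries and the pairwise contrasts of numbers were added after seeing the data. The model was tested on simulated data. Among the Schwann cell markers, 1 gene and the summed level of the list are not reported here.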

Additional observations from a re-analysis of the deposited data

Results flagged for a closer look

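*Pdgfra* in the control group had 1 library far from the others: number 3 was the lowest at 0.419 CPM, with a gap of 0.876 of the range of the group to the next library. *Ugt8a*, the galactolipid enzyme, with apoE2 had its highest library in number 1 at 13.9 CPM, with a gap of 0.842 of the range. These were 2 of 108 combinations of a tested member and a group, examined against Dixon's critical value, which chance alone passes at about the 0.05 level in each combination. *Olig2* differed between apoE4 and apoE3 in the fit with the replicate number, at -0.61 (log2; adjusted p = 0.0397, edgeR).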

How the results depend on the processing

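Without the replicate number, the count of members at an adjusted p under 0.05 was 0 in the 6 comparisons under each alternative except the replicate block. With the replicate block it was 7 for apoE3, 1 for apoE4 and 1 for apoE4 against apoE3, and 3 members met the 2-fold criterion with apoE3. In the other blocked comparisons it was 0 with the main filter. *Pdgfra* met the 2-fold criterion with the block for apoE4 and for apoE3 against apoE2.

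The blocked counts depended on the filter. With no low-count filter (34387 genes tested) they were 1 for apoE2 (3.17% of all genes), 12 for apoE3 (8.59%), 5 for apoE4 (4.18%), 3 for apoE4 against apoE3 (3.48%), 1 for apoE4 against apoE2 (4.36%) and 7 for apoE3 against apoE2 (3.61%). With at least 1 CPM in 8 libraries (14001 genes) apoE4 against apoE2 gave 1 (5.39%). DESeq2 with the block gave 2 for apoE4 against apoE3 (4.13%), 1 for apoE4 against apoE2 (7.29%) and 3 for apoE3 against apoE2 (4.26%). Without both libraries with few *Lars2* counts the blocked counts were 1 for apoE2 (5.11%), 12 for apoE3 (15.8%), 2 for apoE4 (5.61%) and 2 for apoE4 against apoE3 (3.08%). The cause was not tested. Leaving out 1 library at a time, blocked counts ran from 0 to 2 for apoE2, 2 to 12 for apoE3, 0 to 2 for apoE4, 0 to 2 for apoE4 against apoE3, 0 to 1 for apoE4 against apoE2 and 0 to 1 for apoE3 against apoE2. The 2-fold criterion without the block ran from 0 to 1 for apoE4 against apoE2 and from 0 to 1 for apoE3 against apoE2. The count of members that differed between replicate numbers was 27 in each fit without 1 library, 28 with no low-count filter and 19 with the filter of 1 CPM in 8 libraries. No value changed sign among those with a call.

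Depth limits the low members: *Enpp6* had 2 to 41 and *Fa2h* 1 to 25 counts per library.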
